A study of Homo sapiens with 6 samples.

Results

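The transcripts described here come from the MYCN locus on the short arm of chromosome 2: MYCN itself, its antisense neighbour MYCNOS, and DDX1, NBAS and CYRIA, the protein-coding genes on either side. The 5 genes were picked by name for their position around MYCN, out of 60651 gene identifiers with a count. After 5 days of induced MYCN expression, MYCN was 6.43-fold and MYCNOS 7.05-fold higher than in control cells. The 2 genes share 98 exon bases, on which their reads cannot be told apart. How much of the MYCNOS value came from MYCN reads was not tested. DDX1 and NBAS did not pass the test, with fold changes of 1.06 and 0.990. CYRIA was close to undetected in both conditions.

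MYCN is a basic helix-loop-helix leucine zipper transcription factor that binds DNA as a dimer with MAX, and its amplification marks high-risk neuroblastoma, a childhood tumour of the sympathetic nervous system. The amplified segment often carries DDX1 and NBAS along with MYCN, so in amplified tumours these genes can be abundant together. MYCNOS is transcribed from the opposite strand, starts within the MYCN gene and encodes the small NCYM protein. DDX1 is an RNA helicase, NBAS works in vesicle traffic between the Golgi apparatus and the endoplasmic reticulum and in nonsense-mediated mRNA decay, and CYRIA binds RAC1 and restrains actin branching.

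RNA came from SK-N-AS, an established neuroblastoma cell line that lacks MYCN amplification. The cells carried a tetracycline-inducible MYCN construct and the tetracycline repressor, and were kept as single clones under the antibiotics G418-BC and Blasticidin. The 3 control libraries, labelled ETOH for ethanol, and the 3 induced libraries, labelled Tet for tetracycline, were both taken at 120 h. Both groups share the construct, the repressor and the selection. They differ in tetracycline as well as in MYCN, and no library had tetracycline without the construct. An effect of tetracycline itself therefore cannot be told apart from one of MYCN. The promoter that drives the construct, the part of MYCN that it holds and the number of clones sequenced are not given in the sources used here, and reads from the construct and from the chromosomal gene cannot be told apart where they share sequence.

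The libraries were made from ribosome-depleted total RNA and held 64500589 to 102249336 counted read pairs. The 92 spike-in sequences listed with the genes had 0 counts in every library. All fold changes are therefore relative to the other genes of a library, and a change in RNA per cell cannot be read. Values are given as estimated counts, as CPM, normalized to library size, for comparisons between libraries, or as TPM. TPM also divide by all annotated exon bases of a gene, which can exceed the length of the transcripts present. Comparisons of TPM between genes depend on that choice of length. On the first principal component of all tested genes, which held 49.4% of the variance, induced replicate 3 stood at 45.7, the other induced libraries at 7.7 and 7.8, and the controls at -27.6 to -15. Genes that mark neuroblastoma were expressed in both groups, with a HAND2 level of 442 ± 96.6 CPM in control libraries and 470 ± 84.1 CPM in induced libraries (SD, n = 3), whereas STMN2 and NEFM had at most 4 counts in a library. The summed markers ran from 2.00 to 2.18 CPM for leukocytes in control and 1.53 to 2.30 CPM in induced libraries, with CD3E at 0 in every library, and from 1.10 to 1.43 and 0.770 to 0.920 CPM for endothelial cells. Summed epithelial markers reached 108 to 144 CPM in control and 87.5 to 126 CPM in induced libraries, mostly from KRT8. Of 13 tested neuroblastoma markers 0 rose and 2 fell, against 1.02% and 2.38% of all tested genes. Their median log2 fold change was -0.34, and 6 of the 13 had an unadjusted p under 0.05 by edgeR, against 18.7% of all tested genes. Those that fell were the granins CHGA (log2 fold change -1.21) and CHGB (-2.13), with edgeR adjusted p of 0.0492 and 0.0259. Of 7 mesenchymal-type markers 0 rose and 1 fell, FN1, which encodes fibronectin (-0.71, edgeR adjusted p = 0.0330). By edgeR 4 of the 7 had an unadjusted p under 0.05, VIM and PRRX1 higher and FN1 and NOTCH2 lower, against 18.7% of all tested genes. Their summed level was 551 to 561 CPM in control and 606 to 615 CPM in induced libraries. Most of it came from VIM, with means of 364 and 447 CPM. The part of all these markers in the values of the locus genes was not tested. The labels do not say whether the libraries of a group came from separate cultures, while the methods call replicates independent, and the p-values measure the spread between these libraries.

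MYCN lies on the plus strand at chr2:15940550-15947007 (GRCh38), and its 3 exons hold 2616 bases. MYCNOS lies on the minus strand at chr2:15918350-15942249, and its 8 exon blocks hold 5100 bases, of which 5 blocks are upstream of the MYCN start and 2 are in the first MYCN intron. The genes share 98 exon bases at chr2:15942152-15942249, in the coding part of MYCN exon 2, beginning 87 bases after the first base of the start codon. This stretch is shown because a read pair on it belongs to both genes in the annotation. The plus strand of chr2:15942136-15942265 is given with the shared bases in capitals and 16 flanking bases on each side in lower case.
shared bases of MYCN exon 2 and MYCNOS: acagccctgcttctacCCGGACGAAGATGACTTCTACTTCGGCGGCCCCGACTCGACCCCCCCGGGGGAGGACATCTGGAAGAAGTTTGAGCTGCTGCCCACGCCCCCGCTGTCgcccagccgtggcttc

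The shared bases had a GC content of 66.3% and made up 3.75% of the exon bases of MYCN and 1.92% of those of MYCNOS. Read pairs that touch them can extend beyond them. These shares of bases therefore do not give the share of read pairs that belong to both genes. MYCN was also assayed by qRT-PCR, with primers that matched exons 2 and 3 outside the shared bases and span a spliced product of 168 bases. The primers are shown because they define which MYCN sequence that assay reads. The forward primer lies at chr2:15942807-15942826 on the plus strand and the reverse primer at chr2:15945595-15945612 on the minus strand, both in coding sequence.
forward primer: accacaaggccctcagtacc
reverse primer: tgggacgcacagtgatgg

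MYCN (ENSG00000134323.12) had 3171, 3146 and 3284 counts in the control libraries and 13675.5, 20625 and 16840 in the induced libraries. After normalization these were 30.3, 35.5 and 32.4 CPM in control and 211, 221 and 198 CPM in induced libraries. All 3 induced libraries were above all 3 controls, and within each group the values were close together, with a coefficient of variation of 8% in control and 5.41% in induced cells. The means were 32.7 ± 2.62 CPM and 210 ± 11.4 CPM (SD, n = 3). The log2 fold change was 2.68 (SE 0.085, 95% interval 2.49 to 2.88), with an adjusted p of 4.16e-05 by edgeR's quasi-likelihood test with Benjamini-Hochberg adjustment. MYCN had the smallest p of all 29086 genes tested. It is the gene the construct expresses, so this also checks the labels: every library labelled Tet had more MYCN than every library labelled ETOH.

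MYCNOS (ENSG00000233718.8) had 133, 146 and 194 counts in control and 621.5, 1280 and 908 in induced libraries, or 1.27, 1.65 and 1.91 CPM against 9.58, 13.7 and 10.7 CPM. The groups did not overlap, and induced replicate 2 was the highest library for MYCNOS as it was for MYCN. The means were 1.61 ± 0.323 CPM and 11.3 ± 2.15 CPM (SD, n = 3), with a wider relative spread than MYCN at 20.1% and 18.9%. The log2 fold change of MYCNOS was 2.82 (SE 0.199, 95% interval 2.36 to 3.28; edgeR's quasi-likelihood test with Benjamini-Hochberg adjustment, adjusted p = 0.00176).

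Of the 5 locus genes, 4 passed the filter of at least 10 counts in at least 3 libraries, and 2 of these were called, both higher. Over all tested genes 3.40% were called in either direction, 1.02% as higher and 2.38% as lower. These shares depended on the libraries, since 298 genes were called higher and 692 lower with all 6, but 18 and 72 without control replicate 2 and 1060 and 1279 without induced replicate 3. The CPM of the groups did not overlap for MYCN and MYCNOS, and likewise for 26.3% of all tested genes, 11.5% higher and 14.7% lower in induced cells.

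**Figure D1:**
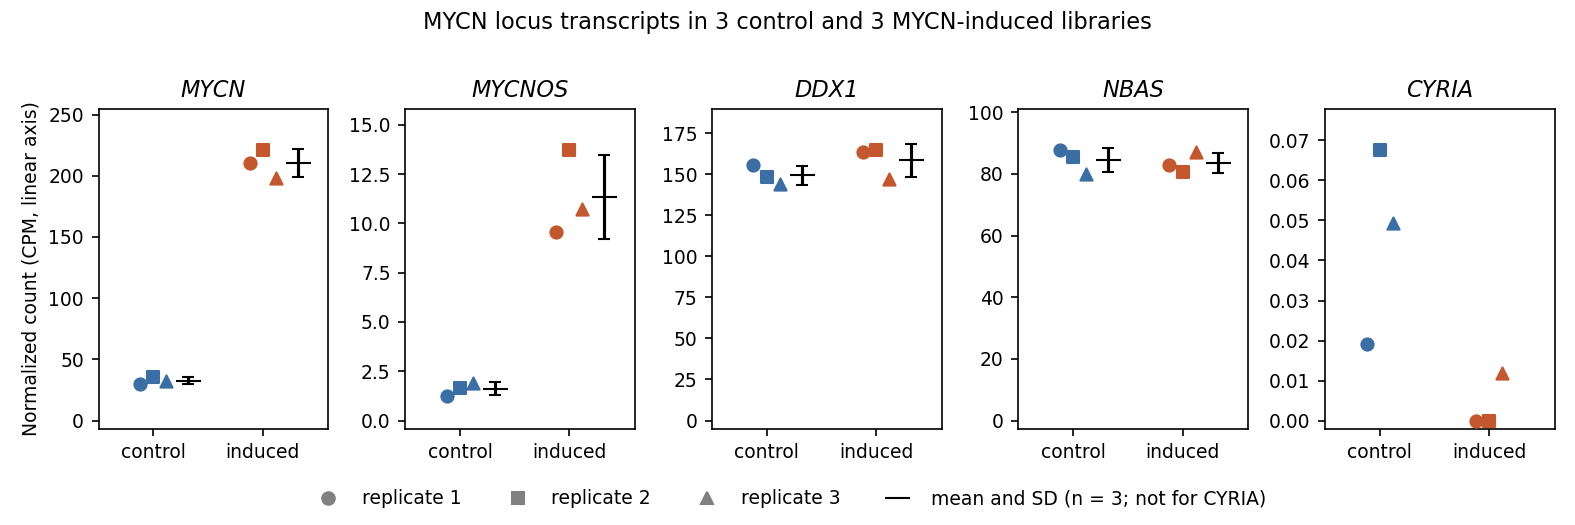
Normalized counts (CPM, linear axes of different height) of the 5 locus genes in the 3 control and 3 induced libraries, with each library as a point and the mean and SD (n = 3) as a bar, except for CYRIA. MYCN and MYCNOS are higher in all 3 induced libraries, DDX1 and NBAS overlap between groups, and CYRIA stays at or under 0.0677 CPM.

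MYCNOS was far less abundant than MYCN in each library, and the ratio between them covered overlapping ranges in control and induced libraries. MYCNOS counts were 4.19%, 4.64% and 5.91% of MYCN counts in control and 4.54%, 6.21% and 5.39% in induced libraries. The groups overlapped, with means of 4.91% ± 0.889 and 5.38% ± 0.831 (SD, n = 3). The difference of 0.13 on the log2 scale gave p = 0.6 in an exact two-sided permutation test, for which 3 against 3 libraries cannot go below 0.1. This design could not have reached a p under 0.05, so the test says nothing about whether the ratio changed.

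How many of the MYCNOS counts came from the 98 shared bases cannot be read from gene totals. The header of the deposited counts states that pairs overlapping several genes were divided among them, with no strand option set. The values carry the trace of that division: of values above 0, 14.9% were not whole among the 42219 genes that share no exon base with another gene, 52.6% among the 9840 genes that share exon bases with 1 gene on the opposite strand, and 59.0% among the 3527 that share them with 1 gene on the same strand. Reads of MYCN and of its antisense partner on the shared bases therefore cannot be told apart. MYCN and MYCNOS were both whole in 5 libraries and both not whole in induced replicate 1. With the counts of both genes added together, the log2 fold change was 2.69, against 2.68 for MYCN alone. MYCNOS counts were only 4.19% to 6.21% of MYCN counts, so the sum could hardly differ. It says nothing about which gene the reads came from. The share of MYCN-derived reads in the MYCNOS values was not tested.

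MYCNOS also shares 665 exon bases at chr2:15920399-15921063 with MYCNUT, a long noncoding RNA 4.53 kb upstream of MYCN on the plus strand. MYCNUT had 0 counts in every library, so no MYCNOS count was divided with it. If pairs were divided without regard to strand, as the header states, no MYCNOS count came from these 665 bases. The MYCNOS TPM values still divide by all 5100 exon bases. The nearest gene on the other side, the 7SL pseudogene RN7SL104P, 3.68 kb from MYCN, also had 0 counts in every library.

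**Figure D2:**
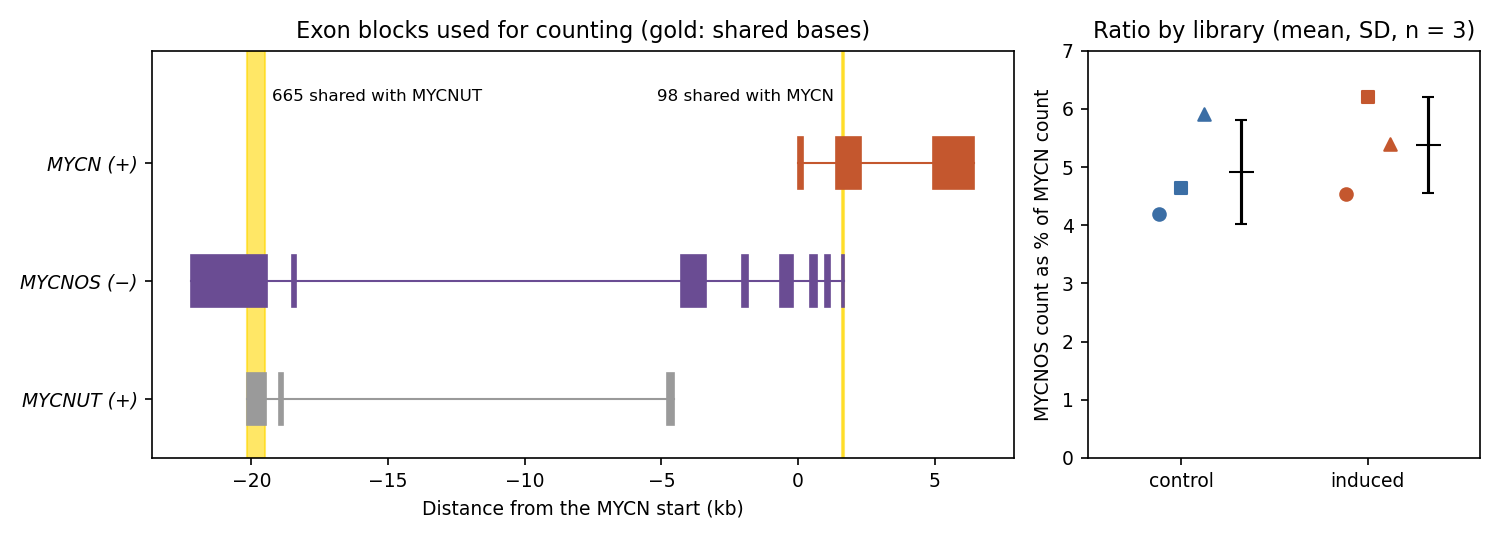
Left, the exon blocks of MYCN, MYCNOS and MYCNUT by distance from the MYCN start in kb, with shared exon bases in gold. Right, MYCNOS counts as a percentage of MYCN counts in each library, with mean and SD (n = 3), at 4.19% to 5.91% in control and 4.54% to 6.21% in induced cells.

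DDX1 (ENSG00000079785.16), an RNA helicase with roles in tRNA ligation, lies 306 kb towards the telomere from MYCN at chr2:15591178-15634346 on the plus strand. Its levels were 156, 149 and 144 CPM in control and 163, 165 and 147 CPM in induced libraries. The groups overlapped, since induced replicate 3 fell within the control range. The means were 149 ± 5.76 and 158 ± 10.01 CPM (SD, n = 3), and the log2 fold change was 0.08 (SE 0.071, 95% interval -0.08 to 0.25; edgeR's quasi-likelihood test with Benjamini-Hochberg adjustment, adjusted p = 0.589). In linear terms the interval ran from 0.946-fold to 1.19-fold, far from the interval of MYCN, 5.61-fold to 7.36-fold.

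NBAS (ENSG00000151779.13), a subunit of the NRZ vesicle tethering complex, lies 379 kb towards the telomere at chr2:15166914-15561334 on the minus strand. It had 87.8, 85.6 and 80.0 CPM in control and 83.0, 80.7 and 87.1 CPM in induced libraries. The groups covered nearly the same range. The means were 84.5 ± 3.99 and 83.6 ± 3.22 CPM (SD, n = 3), and the fold change was 0.990 with a 95% interval of 0.888 to 1.10 (edgeR's quasi-likelihood test with Benjamini-Hochberg adjustment, adjusted p = 0.936). Neither DDX1 nor NBAS shares an exon base with another gene in the annotation used here, and their values were whole in all 6 libraries.

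CYRIA (ENSG00000197872.11), which binds active RAC1 and limits the WAVE actin complex, lies 602 kb towards the centromere at chr2:16549459-16666331 on the minus strand. It had 2, 6 and 5 counts in the control libraries and 0, 0 and 1 in the induced libraries, and did not pass the count filter. Its exons share 84 bases with ENSG00000237633 on the opposite strand. The floor of 3 counts corresponds to 0.0286 to 0.0462 CPM per library, so 4 of the 6 libraries were at or under it. Summed over libraries and corrected for depth, the control to induced ratio was 10.7, with a 95% exact counting interval of 1.61 to 455 that covers counting error only. Without the count filter edgeR's quasi-likelihood test gave an adjusted p of 0.246 with Benjamini-Hochberg adjustment (unadjusted p = 0.0231). The gene is too sparse here for a statement on its change. Its paralogue CYRIB, which also binds RAC1, had 5525 to 8370 counts per library.

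On the TPM scale the order of levels in control cells was DDX1 at 24.3 ± 2.18, MYCN at 20.5 ± 1.44, NBAS at 15.5 ± 1.49 and MYCNOS at 0.515 ± 0.0787 TPM (SD, n = 3), with CYRIA last. In induced cells it was MYCN at 133 ± 23.8, DDX1 at 25.9 ± 4.76, NBAS at 15.3 ± 1.38 and MYCNOS at 3.69 ± 1.08 TPM (SD, n = 3). MYCN thus moved from rank 3533 to rank 357 among all genes by mean TPM, and MYCNOS from rank 24922 to rank 13691, while DDX1 went from 2896 to 2808 and NBAS from 4874 to 5107. In control cells DDX1, MYCN and NBAS were neighbours in TPM, and the ranges of neighbours in the order did not overlap over the 3 libraries, narrowly for DDX1 (lowest 22.3 TPM) and MYCN (highest 22.1 TPM). This order rests on the exon bases used, 10125 for DDX1, 8947 for NBAS and 2616 for MYCN. Without division by length, the control means were 149 CPM for DDX1, 84.5 for NBAS and 32.7 for MYCN.

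Within a library, MYCN was 0.754, 0.924 and 0.870 times as abundant as DDX1 in control and 4.99, 5.20 and 5.24 times in induced cells, in TPM. Against NBAS, MYCN stood at 1.18, 1.42 and 1.38 in control and 8.68, 9.38 and 7.80 in induced cells. Both ratios separated the groups in every library, with p = 0.1 in an exact permutation test, the smallest that 3 against 3 libraries allow. The ratio of DDX1 to NBAS was 1.56, 1.53 and 1.59 in control and 1.74, 1.80 and 1.49 in induced cells, which overlapped (exact permutation p = 0.4).

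The rest of the neighbourhood was mostly silent. Between DDX1 and CYRIA, a distance of 915 kb, the annotation holds 20 genes besides MYCN and MYCNOS. None of these is protein-coding, 18 had 0 counts in every library, and the highest count of the other 2 in any library was 4.

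Within 5 Mb of MYCN there were 131 other genes, of which 45 were tested and 45 had 0 counts in every library. Of the tested genes 0 were called by edgeR, against a background of 3.40% called by edgeR over all genes. DESeq2 called 0 of them, against 904 genes higher and 1199 lower among all 29086 tested. By edgeR 3 of the 45 had an unadjusted p under 0.05, as did 5445 of all 29086 tested genes (18.7%). The 3 were the noncoding LINC00954, at a log2 fold change of -0.79 (edgeR adjusted p = 0.0897), ENSG00000286427, at -0.68 (adjusted p = 0.129), and WDR35, a component of ciliary transport, at 0.21 (adjusted p = 0.165). The 45 log2 fold changes had a median of -0.03 and ran from -0.79 to 0.97, against a median of 0.00 over all genes. Groups did not overlap for 7 of the 45 genes, or 15.6%, against a background of 26.3% over all tested genes.

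Without induced replicate 3, 1 gene in this window was called, the pseudogene DRG1P1 (log2 fold change 0.85, edgeR adjusted p = 0.0318). That fit called 1060 genes higher and 1279 lower of 28797 tested. Widening the window to 10 Mb brought in 5 called genes of 143 tested, 4 higher and 1 lower. Over all tested genes 3.40% were called, 1.02% higher and 2.38% lower. Among the called genes was ODC1, the rate-limiting enzyme of polyamine synthesis, with a log2 fold change of 0.56 (edgeR adjusted p = 0.0046). The others were ASAP2 (0.53), RNF144A (0.50), ENSG00000287119 (0.50) and ID2-AS1 (-0.47). ODC1 lies 5.49 Mb towards the telomere from MYCN.

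**Figure D3:**
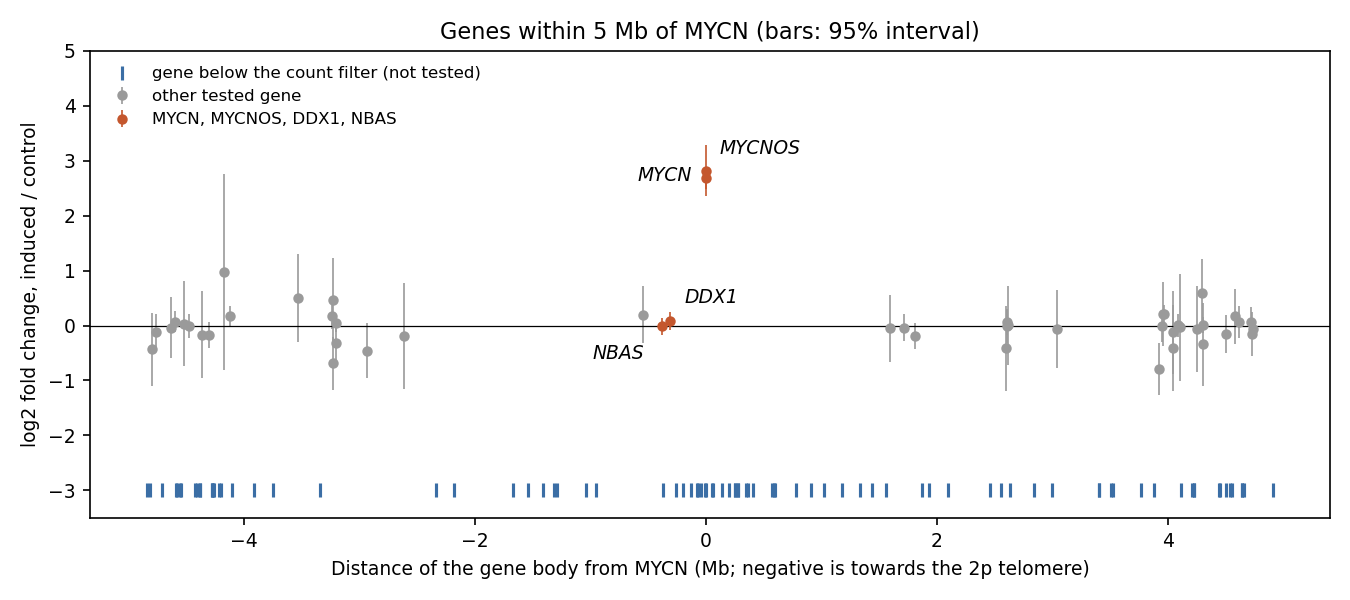
Log2 fold change, induced against control, of tested genes by distance of the gene body from MYCN (Mb, negative towards the 2p telomere), with 95% intervals. Blue ticks mark genes below the count filter. MYCN (2.68) and MYCNOS (2.82) stand above the 45 other tested genes, which lie between -0.79 and 0.97.

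RefSeq promoter windows (GRCh38.p14, 250 bases before to 50 after the start) were found for 4 of the 5 genes and searched on both strands for CACGTG, the canonical E-box bound by MYC and MAX dimers. The letters occurred in none of the windows of MYCN, MYCNOS, DDX1 or NBAS, and in 2548 of 35116 windows overall (7.26%). MYCNOS had 2 windows, and the window at chr2:15942384-15942683 lies within MYCN exon 2. No match says only that these letters are not in these windows.

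The proteins of these genes work with partners encoded elsewhere, and 5 lists of 51 such genes were examined, of which 49 were tested. By edgeR, 1.02% of all tested genes were called higher and 2.38% lower, and 18.7% had an unadjusted p under 0.05. The edgeR log2 fold change was above 0 for 14524 of 29086 genes. DESeq2 called 904 of the 29086 higher and 1199 lower. These shares are the background for the counts of each list. In the MYC network 1 of 12 genes rose and 0 fell, 3 had an unadjusted p under 0.05 by edgeR, and the median log2 fold change was 0.02. The gene that rose was MXI1, which competes with MYC proteins for MAX. It had 38.2, 36.2 and 37.9 CPM in control and 51.2, 57.6 and 64.0 CPM in induced libraries, without overlap. Its log2 fold change was 0.62 (SE 0.091; edgeR's quasi-likelihood test with Benjamini-Hochberg adjustment, adjusted p = 0.0154), and its edgeR adjusted p without control replicate 1, 2 or 3 was 0.0654, 0.112 and 0.0836.

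MNT, another MAX-binding antagonist of MYC proteins, had 19.8, 21.3 and 26.4 CPM in control and 29.1, 28.8 and 44.5 CPM in induced libraries, without overlap. Its log2 fold change of 0.60 missed the threshold by edgeR (adjusted p = 0.138) and passed it by DESeq2 (0.62, adjusted p = 0.0443).

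MAX, the dimer partner of MYCN, had 52.5, 53.3 and 54.8 CPM in control and 62.8, 63.1 and 77.8 CPM in induced libraries. The groups did not overlap, but the log2 fold change of 0.34 missed the threshold (edgeR's quasi-likelihood test with Benjamini-Hochberg adjustment, adjusted p = 0.101), while it passed without induced replicate 3 (0.24, adjusted p = 0.0371) and by DESeq2 (0.36, adjusted p = 0.0478). The paralogue MYC had 48.8, 53.4 and 56.2 CPM in control and 37.6, 37.5 and 66.9 CPM in induced libraries. Induced replicate 3 was the highest library and the other induced libraries were the lowest, so the groups overlapped. The log2 fold change of MYC was -0.16 (edgeR adjusted p = 0.757) with all libraries and -0.48 (edgeR adjusted p = 0.0160) without induced replicate 3. The TPM ratio of MYCN to MYC was 1.09, 1.16 and 1.01 in control and 9.83, 10.3 and 5.20 in induced libraries. Without division by exon length, the control means were 32.7 CPM for MYCN and 52.8 CPM for MYC. Which of the 2 was higher in control cells therefore depends on the length used. MYCL, the remaining paralogue, was low at 5.78 ± 0.0507 and 5.22 ± 0.0415 CPM (SD, n = 3), with a log2 fold change of -0.15 (edgeR adjusted p = 0.466).

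Among 12 genes for turnover of the MYCN protein 0 were called by edgeR, with 2 at an unadjusted p under 0.05, 0 called by DESeq2 and a median log2 fold change of 0.03. AURKA, a kinase that stabilizes MYCN protein, had 43.2, 41.8 and 37.9 CPM in control and 48.95, 52.6 and 27.0 CPM in induced libraries. Induced replicate 3 was the lowest of the 6 libraries, and the log2 fold change was 0.06 (edgeR adjusted p = 0.914), or 0.32 (edgeR adjusted p = 0.0389) without it.

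Genes of the tRNA ligase complex, to which DDX1 belongs, all had positive values, 7 of 7, with a median log2 fold change of 0.08, but 0 were called by edgeR or by DESeq2 and 2 had an unadjusted p under 0.05 by edgeR. RTCB, the catalytic subunit, had 62.4 ± 1.44 CPM without and 69.0 ± 1.83 CPM with induction (SD, n = 3), a log2 fold change of 0.15 (edgeR adjusted p = 0.255). For the NRZ and syntaxin 18 complex, in which NBAS works, 0 of 7 genes were called by edgeR, 1 had an unadjusted p under 0.05, and the median log2 fold change was 0.00. RINT1 and ZW10, the other subunits of NRZ, had log2 fold changes of 0.05 and 0.00 (edgeR adjusted p = 0.857 and 0.996). STX18, the syntaxin of this complex, at 0.28 with an edgeR adjusted p of 0.0912, passed the threshold by DESeq2 (0.30, adjusted p = 0.0280).

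Of 13 RAC1 and WAVE complex genes 11 were tested, 0 rose and 1 fell, 3 had an unadjusted p under 0.05 by edgeR, and the median log2 fold change was 0.02. CYFIP2, a WAVE complex subunit, had 7.40, 7.44 and 8.05 CPM in control and 5.28, 4.34 and 5.12 CPM in induced libraries, without overlap. Its log2 fold change was -0.64 (SE 0.114; edgeR's quasi-likelihood test with Benjamini-Hochberg adjustment, adjusted p = 0.0298). The edgeR adjusted p of CYFIP2 was 0.0938, 0.151 and 0.138 without control replicate 1, 2 or 3, and 0.0812 and 0.0674 without induced replicate 1 or 2. WASF1, another WAVE complex subunit, had 41.4, 40.04 and 37.9 CPM in control and 32.8, 32.0 and 25.3 CPM in induced libraries, without overlap. The log2 fold change of WASF1 was -0.41 with an edgeR adjusted p of 0.0949, and it passed the threshold by DESeq2 (-0.39, adjusted p = 0.0452) and without induced replicate 3 (-0.29, edgeR adjusted p = 0.0313). CYFIP1, the paralogue of CYFIP2, had a log2 fold change of 0.00 (edgeR adjusted p = 0.988). CYRIB, the paralogue of CYRIA, had 79.3 ± 1.22 CPM without and 83.7 ± 3.95 CPM with induction (SD, n = 3), and its log2 fold change was 0.08 (edgeR adjusted p = 0.577).

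**Figure D4:**
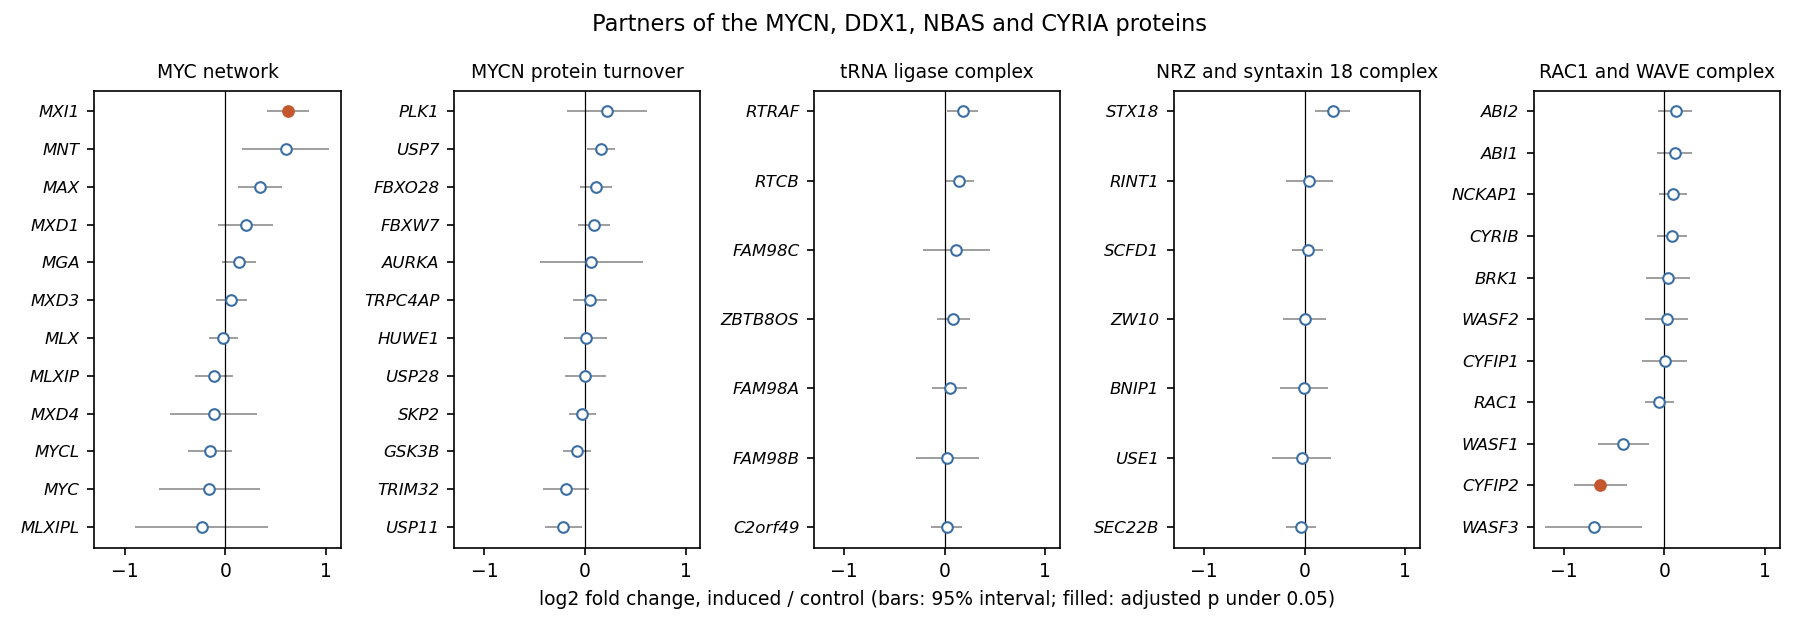
Log2 fold change, induced against control, with 95% intervals for the 49 tested partner genes, in 5 panels by list. Filled points mark an adjusted p under 0.05, which MXI1 (0.62) and CYFIP2 (-0.64) reached.

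Genes whose levels followed each locus gene over the 6 libraries were ranked by Pearson correlation of log2 CPM among 18532 genes, as a description. With 3 libraries in each of 2 conditions, any gene that separates the conditions tightly ranks high for MYCN and MYCNOS. For MYCN the closest were ENSG00000228144 (r = 0.9997), NEK6 (0.9967), MTIF2 (0.9965), ENSG00000261553 (0.9964) and RPF1 (0.9961), and MYCNOS itself was at rank 23 (r = 0.991). NEK6, a mitotic kinase, moved from 22.3 to 28.2 CPM, a far smaller step than that of MYCN. For MYCNOS the closest were NNT-AS1 (0.9989), NPM1P27 (0.9985) and RBM3 (0.9984). DDX1 was followed most closely by CCT2 (0.9954), a chaperonin subunit, RPS6KB1 (0.9946) and GDF11 (0.9929), and NBAS by ENSG00000280485 (0.9921), STAMBP (0.9865) and DZANK1 (0.9855).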

How the data were processed

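RNA-seq was done on 3 control and 3 MYCN-induced libraries. The authors deposited estimated counts, read pairs per gene over exons, from STAR 2.7.1a alignments to GRCh38. The submitters' processing notes name featureCounts 1.5.1, while the file header shows 1.6.4, with pairs divided among overlapping genes and no strand option, although the paper's methods name one. Gene names and types came from GENCODE 44, which matched 99.72% of identifiers, with the same coordinates for 92.60% of these. Gene positions, exon blocks and exon lengths were those of the deposited counts. The numbered exons and coding parts of MYCN came from GENCODE 44. The methods name GENCODE 30.

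After rounding, edgeR 4.0.16 (R 4.3.3) was run on every gene that reached 10 counts in 3 or more libraries, with TMM normalization, the quasi-likelihood test and Benjamini-Hochberg adjustment at 0.05. The standard error is the log2 fold change divided by the square root of F. TPM used exon bases. Ratios were tested by exact two-sided permutation (scipy 1.17.1). Depth ran from 64500589 to 102249336 counts per library, so counting error matters mainly for CYRIA. Replicates differed beyond sampling noise (chi-square per gene 12.1 to 145.6).

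Named genes were the 5 locus genes, called genes within 5 Mb and the nearest gene on each side, called partner genes with the paralogues and direct partners, and the closest genes by correlation over genes of at least 1 CPM with a pseudocount of 0.5. WDR35, LINC00954, ENSG00000286427, DRG1P1, the called genes within 10 Mb, STX18, MNT, WASF1 and the marker genes were named after their values were seen. Members and lists were chosen with earlier results of these data known. Alternatives were DESeq2 1.42.0, other normalizations, filters and thresholds, a replicate block and leaving out each library.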

Additional observations from a re-analysis of the deposited data

How the results depend on the processing

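MYCN kept its direction and its call under all 14 alternatives (log2 fold change 2.63 to 2.74, highest adjusted p 0.00302, by edgeR or DESeq2). The 14 include the sum with MYCNOS, which could hardly differ from MYCN alone. MYCNOS kept both under 12 (2.66 to 2.96, highest adjusted p 0.0238, by edgeR or DESeq2). DDX1 was not called under any of 13, at 0.05 to 0.14. NBAS was not called under any of 13 (-0.055 to 0.010), but its sign turned without control replicate 1 (0.009), without induced replicate 2 (0.010) and with DESeq2 (0.002); the cause was not tested. The log2 difference of the MYCNOS to MYCN ratio ran from 0.03 to 0.28. Calls within 5 Mb were 1 at a threshold of 0.1 and 0 to 1 when a library was left out. Within 10 Mb they were 5 of 143 tested genes, against 3.40% over all tested genes. Calls on the partner lists, 2 in the report, were 0 at a threshold of 0.01, 4 at 0.1 and 6 with DESeq2. The shares of all tested genes called at 0.01 and 0.1 are not given here. The counts at these thresholds, for the lists and within 5 Mb, therefore have no background and cannot be read as a result about these genes. Leaving out a library gave 0 to 6, with 0 without each control and 6 without induced replicate 3. Calls over all genes moved as well, to 904 higher and 1199 lower with DESeq2. They were 18 and 72 without control replicate 2 and 1060 and 1279 without induced replicate 3. The cause was not tested. For CYRIA, the log2 ratio from summed counts was -3.42 and ran from -3.81 to -2.72 when a library was left out; without induced replicate 3 the induced count was 0 and no value was given, nor by alternatives that need the filter.

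Samples with the same replicate number had correlations of 0.30, 0.01 and 0.09 between their deviations from the group means, so the numbers were not taken as pairs, and 3 of 6 libraries correlated best with their own number. With the replicate block the log2 fold changes were 2.68 for MYCN, 2.82 for MYCNOS, 0.08 for DDX1 and -0.02 for NBAS, the ratio difference was 0.13, and partner calls rose to 3 with MNT (edgeR adjusted p = 0.0308). Calls over all genes under the block were 265 higher and 575 lower, against 298 and 692. Calls over all genes were 904 higher and 1199 lower with DESeq2. Leaving out control replicate 1, 2 or 3 gave 46 and 181, 18 and 72, and 30 and 135 calls, and leaving out induced replicate 1, 2 or 3 gave 73 and 216, 169 and 297, and 1060 and 1279.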
